A study of Rattus norvegicus with 9 samples.

Results

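The enzymes that add or remove methyl groups on histones and DNA, together with the histone deacetylases, were followed by their transcripts in ventral spinal cord from rat embryos. Members were the array's probe sets whose platform annotation gave 1 gene symbol of the Setd, Kmt2, Kmt5, Kdm, Hdac, Sirt, Ezh, Suv, Ehmt, Nsd, Prmt or Dnmt families, or Eed, Suz12 or Dot1l. The rule found 120 of the 31099 probe sets, and they stood for 69 of the 14217 genes with a symbol of their own. Of these, 44 genes had 1 probe set and 25 had several, up to 6. The choice by name used no intensity of these arrays, but Setd1b was singled out with its difference between the groups already known, so its values are a description.

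The pools were measured on Affymetrix arrays, which report 1 brightness, or intensity, per probe set. Every pool combined ventral spinal cord RNA of 5 rat embryos at embryonic day 14. The mutant group was 4 pools of a line with the G93R form of human SOD1 (hSOD1), the superoxide dismutase whose mutations cause inherited amyotrophic lateral sclerosis. The wild-type group was 4 pools of a line with unaltered hSOD1. A further pool, named SDneg in its title, is called the negative control in its description, although that description also calls its embryos positive. Each transgene came from 1 named line (Roth for G93R, Chan for wild-type), so the mutation and the line it was carried in cannot be told apart. Which promoter drives the transgenes is not stated in the labels.

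Methyl and acetyl groups on histone tails mark chromatin as active or silent. Methylation of lysine 4 on histone H3 (H3K4) marks promoters and enhancers in use, and that of lysine 36 (H3K36) lies along transcribed genes. Methylation of lysines 9 (H3K9) and 27 goes with silent chromatin, the latter written by Polycomb repressive complex 2 (PRC2). Deacetylases strip acetyl groups and act in most repressor complexes, and in the developing spinal cord these enzymes take part in setting neuronal identity.

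The motor neuron and pan-neuronal marker lists were above the intensity filter in 6 of the 6 genes each had on the array, and the microglia and macrophage list in 0 of 6. The summed motor neuron markers ranged from 3380 to 4827 in mutant pools and from 3034 to 3824 in wild-type pools, with 3186 in the control. The cartilage and mesenchyme list passed in 2 of 7 genes, and its sum was 68.0 to 84.0 in mutant pools, 88.5 to 102 in wild-type pools and 87.3 in the control, without overlap of the transgenic groups. That sum included 5 genes below the filter, and the 2 above it, Col2a1 and Col3a1, overlapped, with log2 differences, mutant minus wild-type, of -0.03 and -0.07. The other lists overlapped between those groups in their sums, but some neuronal markers were higher in mutant pools. Of the motor neuron markers 5 of 6 were higher (median 0.26), Isl1 by 0.45. The sensory ganglion list passed the filter in 3 of 7 genes, and these 3 were higher (median 0.34), Runx1 by 0.64 and Sncg by 0.34. Pan-neuronal markers were higher in 4 of 6 genes (median 0.05), with Elavl3 at -0.28. Neural progenitor markers were higher in 2 of 5 tested genes (median -0.05). None of these passed the threshold (limma adjusted p 0.929 at the lowest). The 3′/5′ intensity ratio of beta-actin, which is higher where RNA is shorter, was 6.98 to 7.98 in mutant pools, 8.19 to 19.2 in wild-type pools and 6.66 in the control, so it too separated the transgenic groups, and wild-type replicate 2 held the 19.2. The same ratio of Gapdh overlapped, at 2.49 to 2.587 in mutant pools, 2.585 to 3.56 in wild-type pools and 2.68 in the control. Wild-type replicate 2 held the 3.56. The part of RNA quality and tissue makeup in the differences below was not tested beyond the fit with the actin ratio as a covariate. In such bulk pools, fewer cells of a type and less RNA per cell cannot be told apart.

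Between mutant and wild-type hSOD1, no enzyme passed the test across all probe sets. Setd1b stood lower in mutant pools, while 1 probe set each of Sirt7, Setd5, Kdm4b, Kdm8 and Kdm5b gave higher values there by smaller margins. The other probe sets of Setd5, Kdm4b and Kdm5b had overlapping groups. Of 102 member probe sets above the filter, 0 had a limma adjusted p under 0.05, where 3 of all 18625 tested did (0.0161%). At an unadjusted limma p under 0.05 there were 4 members (3.92%), 3 higher and 1 lower in mutant pools, against 4.93% of all probe sets. The count of 4 became 2 without mutant replicate 1, 10 without mutant replicate 2, 7 without wild-type replicate 1 or 3, and 9 without wild-type replicate 4.

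All 4 mutant pools lay on 1 side of all 4 wild-type pools for 6 member probe sets (5.88%), compared with 2.95% of all tested. In 5 of them the mutant pools were higher. The median log2 difference, mutant minus wild-type, was 0.02 over the members and 0.01 over all probe sets, and the median size regardless of sign was 0.0898 and 0.096. For 77 of the 102 members, the 95% interval of the difference lay within 0.5 of 0 on the log2 scale. The remaining 18 probe sets were below the filter, and Dnmt3b and Kdm4d were represented by these alone.

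Setd1b encodes a catalytic subunit of a COMPASS complex, which methylates H3K4. Its 1 probe set read 102, 80.4, 151 and 100.2 in mutant replicates 1 to 4. In the wild-type pools it read 201, 194, 183 and 179, and in the control 117. Every wild-type pool was above every mutant pool, and mutant replicate 3 stood closest to them. The group means were 108 ± 30.0 (SD, n = 4) and 189 ± 9.85 (SD, n = 4). The log2 difference was -0.79 (SE 0.153, interval -1.12 to -0.46) with a limma adjusted p of 0.358, which does not pass the threshold. It ranked 9 of 18625 probe sets by p and 34 by size.

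The Setd1b difference was -0.95 without mutant replicate 3, where the limma adjusted p was 0.0387, past the threshold. Over all 20 alternatives the limma adjusted p ran from 0.0387 to 1.00 and the difference from -0.95 to -0.67, and it was -0.79 when the actin ratio was a covariate. With that covariate 0 of all probe sets passed the threshold. The actin ratio itself separated the groups, so that fit cannot tell RNA quality and the transgene apart. The control pool stood nearer to the mutant pools for this gene. Setd1b was above the control in 4 of 4 wild-type pools and in 1 of 4 mutant pools. The log2 difference from the control was 0.66 (interval 0.14 to 1.19) for wild-type hSOD1 and -0.13 (interval -0.66 to 0.39) for mutant hSOD1, both comparisons sharing the 1 control pool and neither past the threshold.

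**Figure D1:**
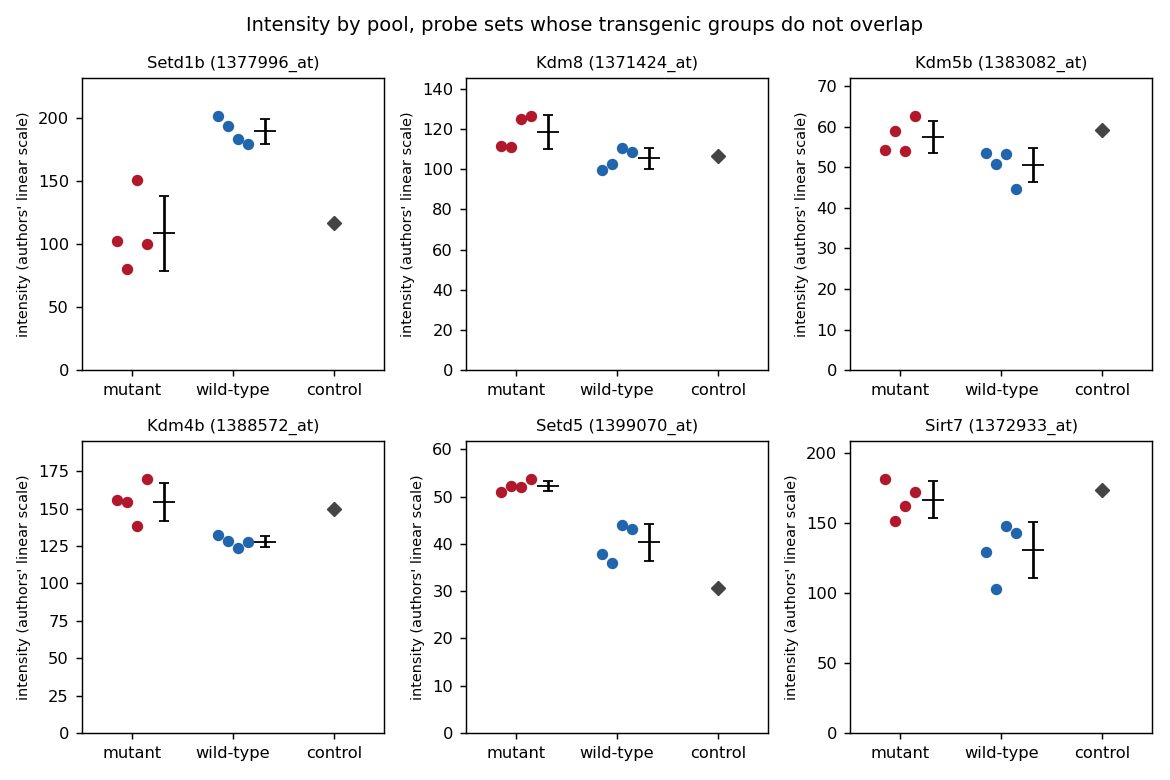
Intensity in each pool (vertical axis, linear, from 0) for the 6 member probe sets whose mutant and wild-type pools did not overlap, with the control pool beside them and lines at group means. Setd1b is the 1 probe set with the mutant pools lower, at 80.4 to 151 against 179 to 201.

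Sirt7, a nuclear sirtuin that uses NAD to deacetylate histones, read 181, 151, 162 and 173 in mutant pools. It read 129, 103, 148 and 143 in wild-type pools and 174 in the control. Here the mutant pools were higher and level with the control, with wild-type replicate 2 lowest. The log2 difference was 0.34 (interval 0.07 to 0.61, limma adjusted p 0.929). With the actin ratio as a covariate it was 0.14.

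Setd5, a SET-domain protein in which human mutations cause intellectual disability, had 3 tested probe sets. The dimmest read 51.1, 52.1, 51.9 and 53.7 in mutant pools, 37.9, 35.95, 44.1 and 43.2 in wild-type pools, and 30.7 in the control. On that probe set the groups were apart, with a log2 difference of 0.32 (interval 0.05 to 0.59, limma adjusted p 0.929). The other probe sets of Setd5 gave 0.15 and 0.03 and had overlapping groups.

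Kdm4b removes methyl groups from H3K9. The brightest of its 3 probe sets read 156, 154, 138 and 169.7 in mutant pools against 132, 128, 123 and 128 in wild-type pools, with 150.0 in the control. Mutant pools were higher without overlap, by 0.26 on the log2 scale (interval 0.03 to 0.48, limma adjusted p 0.929). Its other probe sets gave 0.09 and -0.10.

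Kdm8, a Jumonji-domain protein, read 111, 111, 125 and 126 in mutant pools. In wild-type pools it read 99.5, 103, 111 and 108, and in the control 107. The lowest mutant and highest wild-type values nearly met, and the log2 difference was 0.16 (interval -0.07 to 0.38). Kdm5b, which removes methyl groups from H3K4, read 54.3, 58.8, 54.1 and 62.5 in mutant pools against 53.4, 50.8, 53.4 and 44.7 in the wild-type group on its dimmest tested probe set, with 59.2 in the control. That difference was 0.16, while the brightest Kdm5b one gave -0.31 with overlapping groups. The latter was -0.16 without wild-type replicate 2, -0.21 without mutant replicate 4 and -0.0084 when the actin ratio was a covariate. The probe sets of Kdm5b thus had no single direction.

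When each gene was represented by its brightest probe set, 36 of the 67 tested genes gave a higher value in mutant pools. Of all tested probe sets, 53.7% did. In what follows, a pair of means with SD over 4 pools gives the mutant group first. Among writers of H3K4 methylation, 6 of 7 genes were lower in mutant pools, with a median log2 difference of -0.17. None passed the threshold. Setd1a, the close relative of Setd1b in the same kind of complex, was the exception at 0.19, at 118 ± 9.93 (SD, n = 4) in the mutant and 102 ± 9.93 (SD, n = 4) in the wild-type group. Kmt2a, which maintains Hox gene expression, gave -0.18, and Kmt2d, an enhancer methyltransferase, gave -0.17. Wild-type replicate 2, the pool with the actin ratio of 19.2, was the highest wild-type pool for both genes. It read 584 for Kmt2a, where the other wild-type pools read 357 to 513, and 384 for Kmt2d, where they read 250 to 283. How far that pool carried these differences was not tested. Kmt2e, a relative with little known methyltransferase activity, read 2015 ± 96.6 in the mutant and 2291 ± 263 in the wild-type group, with a difference of -0.18 (interval -0.36 to 0.00), or -0.0648 with the actin covariate. Kmt2b and Kmt2c stood at -0.06 and -0.02. These classes were drawn up with earlier results known, and no count here was tested as a set.

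H3K36 methyltransferases split evenly, 2 higher and 2 lower, with a median of -0.02. Setd2, which trimethylates H3K36 behind RNA polymerase II, gave 0.13 (0.06 to 0.19 as single pools were left out), and Nsd2, a dimethylating enzyme, gave -0.07. For H3K9 methyltransferases 4 of 5 genes were higher, yet the median was 0.04. Suv39h2, an enzyme of constitutive heterochromatin, read 53.5 ± 4.28 against 44.9 ± 7.19, a difference of 0.22. Setdb1, which silences retroelements, gave 0.02 and Setdb2 gave 0.08.

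PRC2 stood close to 0, with 3 of 4 core genes higher and a median of 0.04. Its catalytic subunit Ezh2 gave 0.05 (interval -0.17 to 0.28), the alternative subunit Ezh1 0.07 and the scaffold Suz12 -0.11. Of the writers of lysine 20 on histone H4 and lysine 79 on histone H3, 2 were higher and 2 lower. Kmt5b, which di- and trimethylates lysine 20, read 256 ± 25.3 against 212 ± 48.5, a difference of 0.29 (interval -0.03 to 0.60). It was 0.17 without wild-type replicate 2 and 0.0745 with the actin covariate. Its paralog Kmt5c gave -0.11, in a range of -0.21 to -0.01 as single pools were left out.

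The remaining SET-domain genes divided 2 and 2. Setd3, a methyltransferase of actin, gave -0.08, and Setd6, which methylates the NF-kappaB subunit RelA, gave 0.16, or 0.0389 with the actin covariate. Of the arginine methyltransferases 4 of 7 were higher, with a median of 0.01. Prmt6 gave 0.23, but -0.08 with the actin covariate and 0.06 without wild-type replicate 2, whose value of 105 lay under the 173 to 181 of the other wild-type pools. Prmt8, a membrane-bound enzyme of the brain, gave -0.09, and Prmt2 gave 0.01.

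Lysine demethylases were higher in 9 of 14 tested genes, with a median of 0.04. Kdm2b, which brings a Polycomb complex to unmethylated CpG islands, read 1507 ± 67.0 against 1542 ± 82.7, a difference of -0.03 (interval -0.18 to 0.12). Kdm5c, an X-linked H3K4 demethylase, gave 0.02, 0.22 and 0.01 on its probe sets. Kdm4c, an H3K9 demethylase near the filter, had the lowest value of the demethylases at -0.38, with intensities of 14.5 to 25.6 and 17.2 to 44.8 (chosen after its values were seen).

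Zinc-dependent deacetylases were higher in 5 of 10 genes and lower in the other 5. Hdac2, a class I enzyme of the main corepressor complexes, read 2466 ± 136 against 2624 ± 187, a difference of -0.09 (interval -0.24 to 0.06). Hdac7, a class IIa enzyme, gave -0.22, but -0.12 without wild-type replicate 2 and -0.0445 with the actin covariate. Hdac8, a class I enzyme, gave -0.26 (interval -0.58 to 0.06). Sirtuins divided 3 and 3. Sirt5, a mitochondrial enzyme that removes succinyl groups, read 795 ± 38.9 against 882 ± 51.7, a difference of -0.15 (interval -0.31 to 0.02). Among DNA methyltransferases, the maintenance enzyme Dnmt1 gave 0.09 (interval -0.24 to 0.42). Dnmt3a, which sets new methylation, read 179 ± 16.4 and 179 ± 21.3, and its interval was -0.25 to 0.24.

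**Figure D2:**
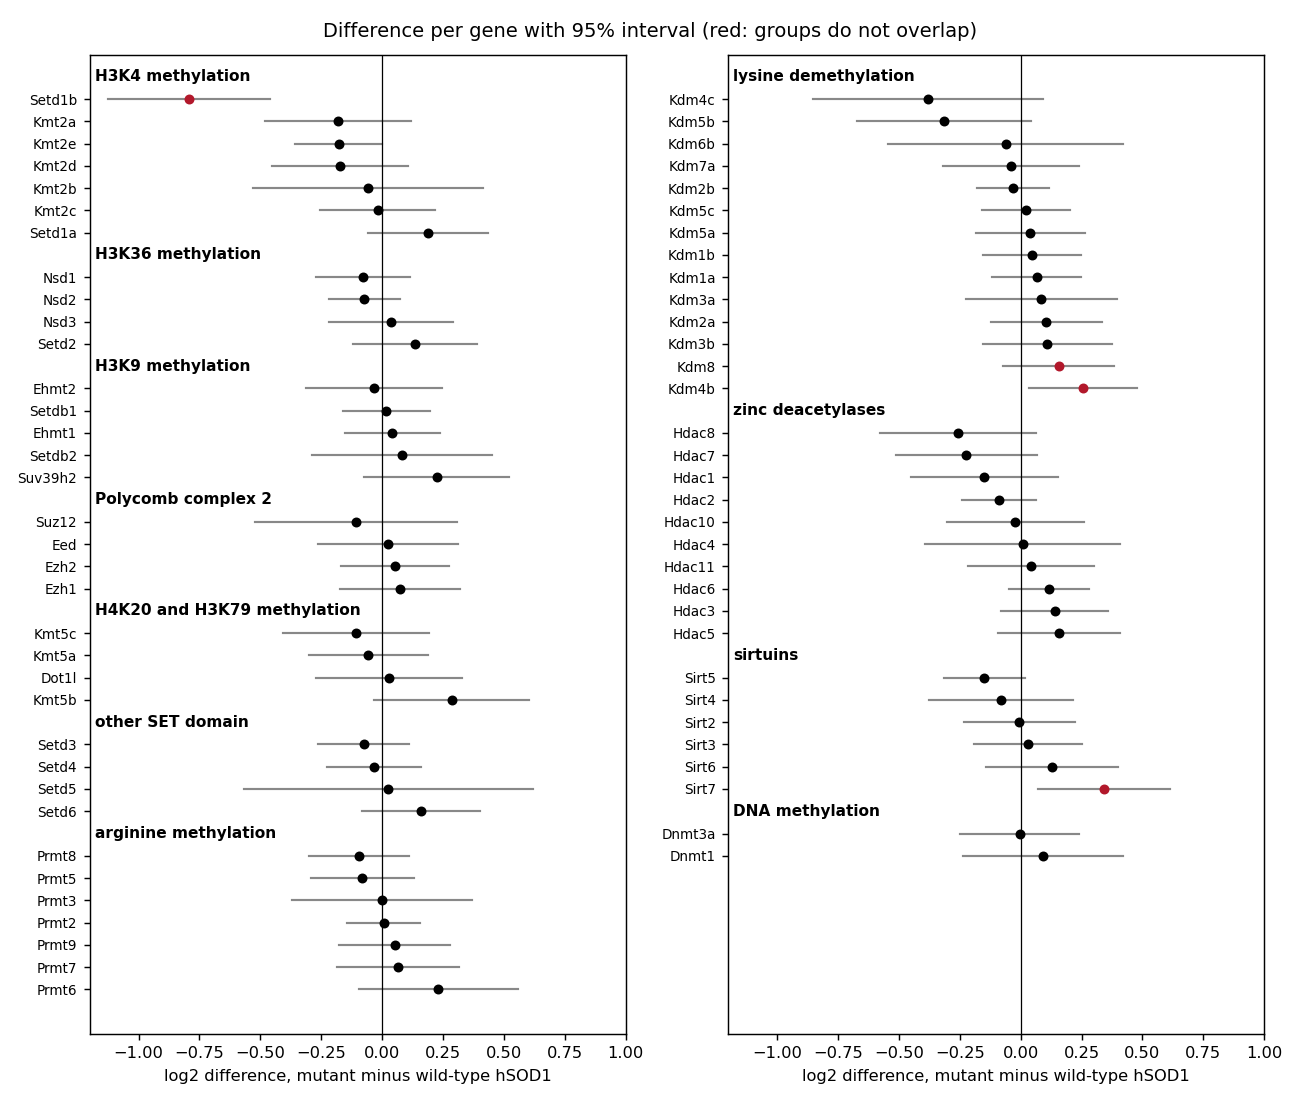
Log2 difference, mutant minus wild-type hSOD1 (horizontal axis), for 1 probe set per gene with its 95% interval, grouped by enzyme class. Setd1b at -0.79 lies apart from the other H3K4 methyltransferases, and red marks genes whose groups did not overlap.

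Of the 17 genes with several tested probe sets, 7 had all their differences of 1 sign and 10 had both signs. The differences within a gene spanned a median of 0.258 on the log2 scale, and 0.475 at the widest, in Kdm5b. Kmt2a and Kmt2c, with a pair of tested probe sets each, were negative on both, and Kmt2e was negative on 4 of 5 in a range of -0.26 to 0.02. Probe sets of 1 gene were read on the same pools, so their signs are not independent. Wild-type replicate 2 was the highest wild-type pool on both Kmt2a probe sets (584 and 56.6). For Kmt2c it was so on the dimmer (89.2) and not on the brighter (597). Setd1b had no further probe set to set beside its -0.79.

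**Figure D3:**
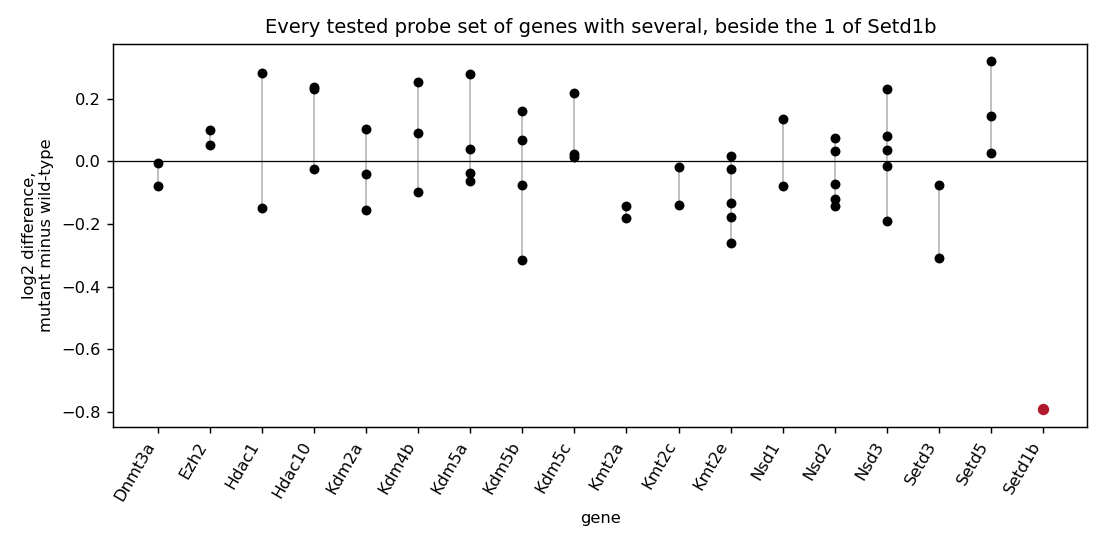
Log2 difference, mutant minus wild-type hSOD1, of every tested probe set of the 17 genes with several, beside the 1 probe set of Setd1b. Points of 1 gene fall on both sides of 0 in 10 of the 17.

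The enzymes also varied between pools of 1 group. Mutant replicate 4 was the highest of the 4 mutant pools for 56 member probe sets (54.9%), compared with 31.6% of all tested. Wild-type replicate 4 was highest of its group for 40 members (39.2%), compared with 25.8% of all. The median departure of members from the group mean was 0.09 in each of these pools on the log2 scale, and over all probe sets it was 0.02 in each. Whether replicate numbers pair these pools, and what sets them apart, is not given in the labels. Within groups, the members' log2 values had a median SD of 0.140 (mutant) and 0.183 (wild-type), near the 0.153 and 0.188 of all probe sets.

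**Figure D4:**
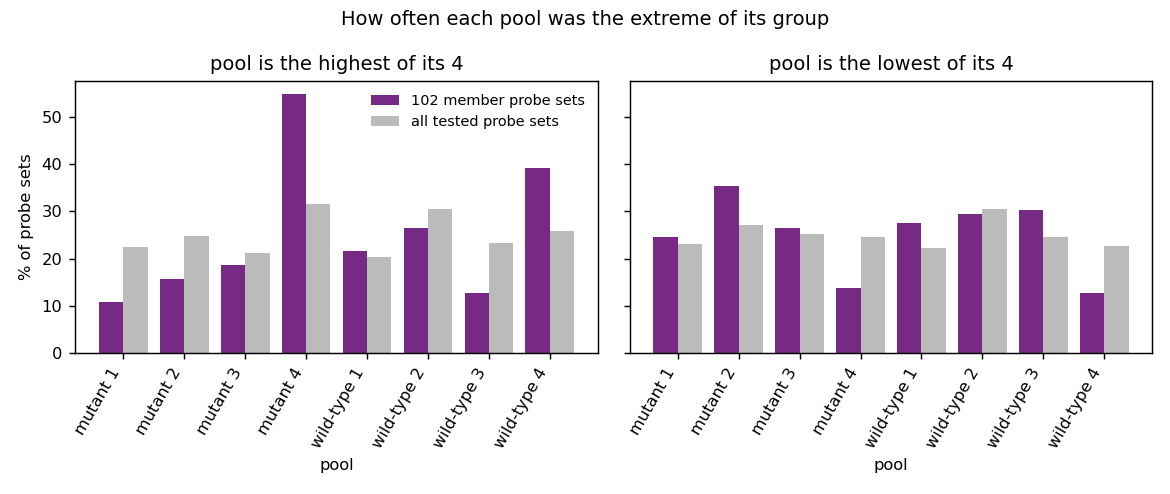
Share of probe sets (vertical axis, percent) for which each pool was the highest or the lowest of its 4, for member probe sets and for all tested ones. Mutant replicate 4 and wild-type replicate 4 were highest for 54.9% and 39.2% of members.

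Against the negative control, the same test gave no member past the threshold, and the single control pool was assumed to vary like the transgenic ones. The PRC2 enzyme Ezh2, on both tested probe sets, and the deacetylase Hdac5, on its tested probe set, read below the control in all 8 transgenic pools. Sirt5 and Hdac11 read above it in all 8. Setdb1, Suv39h2 and Dot1l were also below it in every transgenic pool, and Setd4 and Kdm2b above it, on the tested probe set of each. Of genes with several tested probe sets, a single probe set was below it for Kdm2a and above it for Setd3. The H3K36 methyltransferase Nsd3 was below the control in all 8 pools on 2 of 5 tested probe sets, and the H3K4 demethylase Kdm5a on 2 of 4. By limma adjusted p under 0.05 there were 0 calls among all probe sets (0%) for both transgenes together, for mutant hSOD1 and for wild-type hSOD1. At an unadjusted limma p under 0.05, members numbered 1 for both transgenes (3.12% of all probe sets passed), 1 for mutant hSOD1 (2.29% of all) and 4 for wild-type hSOD1 (4.28% of all). The count for both transgenes became 2 without mutant or wild-type replicate 3, and 3 without mutant replicate 4 or wild-type replicate 2 or 4, while that for mutant hSOD1 became 3 without mutant replicate 4. All 8 transgenic pools were below the control for 13 members (12.7%, against 10.5% of all) and above it for 6 (5.88%, against 9.19% of all). The median log2 difference of members, both transgenes minus control, was -0.05, and that of all probe sets was -0.02.

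Ezh2 stood below the control in all 8 pools on both tested probe sets, and not on a further one under the filter. On the brighter it read 445, 405, 487 and 539.6 in mutant pools, 471, 415, 423 and 492 in wild-type pools and 541 in the control. Mutant replicate 4 nearly reached the control. The log2 differences from the control, over both transgenes, were -0.24 and -0.31.

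Hdac5, a class IIa deacetylase of muscle and neurons, read 397, 405, 483 and 479 in mutant pools. It read 318, 439, 394 and 433 in wild-type pools and 540.4 in the control, above every transgenic pool. The log2 difference was -0.37 over both transgenes and -0.45 for wild-type hSOD1 alone. A further Hdac5 probe set, under the filter, read above the control in all 8 pools (3.98 to 13.4 against 2.16). For Nsd3 the probe sets below the control in all 8 pools gave -0.41 and -0.31, and for Kdm5a -0.17 and -0.39. Dnmt3a gave -0.66 on a dim probe set (11.0 to 37.9 against 41.7) and -0.05 on its brighter one.

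Sirt5 read 801, 844, 750.5 and 783 in mutant pools, 813, 938, 889 and 889 in wild-type pools and 731 in the control. Every transgenic pool was above the control, by 0.19 on the log2 scale. Hdac11, the class IV deacetylase, read 72.9 ± 6.01 (SD, n = 8) against 59.4, a difference of 0.26. Setd5 had the lowest p of the members in this comparison on its dimmest probe set, at 0.47 (interval 0.06 to 0.89, limma adjusted p 1.00). Another probe set of Setd5 was below the control in all 8 pools, at -0.42, so the gene had no single direction.

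**Figure D5:**
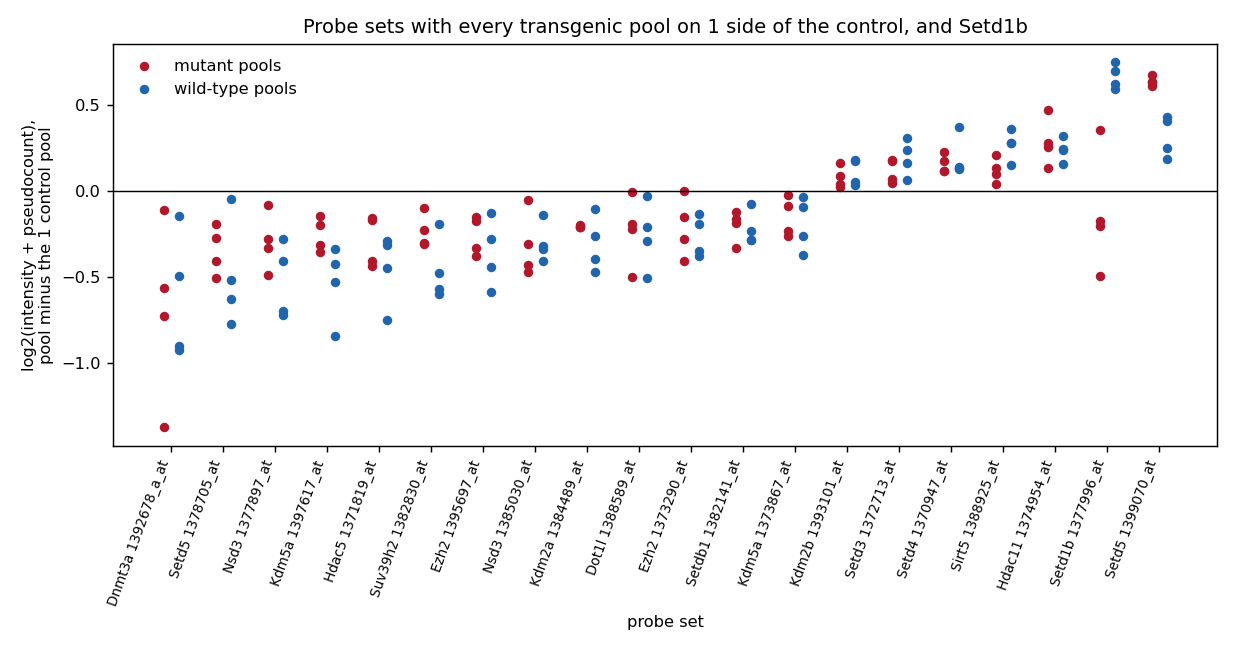
Difference of each transgenic pool from the 1 control pool in log2(intensity + pseudocount), for the probe sets with all 8 pools on 1 side and for Setd1b. The probe sets of Setd5 lie on both sides, and for Setd1b the wild-type pools are above and 3 of 4 mutant pools below the control.

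Of the tested members, 0 had all mutant pools below and all wild-type pools above the control, and 0 the reverse, where the shares of all tested probe sets were 0.113% and 0.161%, so that a count of 0 says nothing particular of the members. By class, with 1 probe set per gene, the H3K36 methyltransferases were below the control in 4 of 4 genes (median -0.13) and the lysine demethylases in 10 of 14 (median -0.09). H3K4 methyltransferases were above it in 5 of 7 (median 0.03) and zinc-dependent deacetylases in 6 of 10 (median 0.02). Also below it were 3 of 4 writers of H4 lysine 20 and H3 lysine 79 (median -0.17) and 4 of 5 H3K9 methyltransferases (-0.11). The same held for 2 of 2 DNA methyltransferases (-0.13), 3 of 4 PRC2 genes (-0.10) and 4 of 6 sirtuins (-0.04). Above it were 3 of 4 other SET-domain genes (0.16) and 4 of 7 arginine methyltransferases (0.02). By the same difference, 46.5% of all tested probe sets and 39.2% of member probe sets were above the control.

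Partners of the enzymes were read from lists drawn up by function, and no partner passed the threshold between mutant and wild-type pools (lowest limma adjusted p 0.929). Of 12 tested partners of the COMPASS complexes, 9 were higher in mutant pools, with a median of 0.04, where 53.7% of all tested probe sets were higher. Cxxc1, the subunit that brings Setd1a and Setd1b complexes to CpG islands, read 329, 281, 309 and 273 in mutant pools, 229, 232, 267 and 257 in wild-type pools and 299.9 in the control. Its mutant pools were all higher, by 0.26 (interval 0.05 to 0.48), opposite in sign to Setd1b. The transgenic groups were apart for 1 of these 12 partners, where they were apart for 2.95% of all tested probe sets. They were also apart for 1 of 13 acetyltransferases, 1 of 11 other lysine methyltransferases and 0 genes of the remaining partner lists. Men1, which belongs to the Kmt2a and Kmt2b complexes, gave 0.24 with overlapping groups.

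Corepressor subunits that carry deacetylases were higher in 17 of 23 genes, with a median of 0.07 and no group apart. Polycomb partners divided 9 and 8. Acetyltransferases, which oppose the deacetylases, were higher in 6 and lower in 7 of 13 genes. Kat6a, an acetyltransferase of histone H3, read 247, 259, 209 and 242 in mutant pools against 319, 381, 262 and 288 in wild-type pools, with 302 in the control. Mutant pools were all lower, with a log2 difference of -0.36 (interval -0.62 to -0.10), with the closest values at 259 and 262. Readers and erasers of DNA methylation divided 3 and 3.

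Of 11 other lysine methyltransferases, 6 were higher. Setmar, a SET-domain protein fused to a transposase in primates, read 72.0, 83.6, 57.9 and 91.1 in mutant pools against 53.3, 55.1, 48.6 and 53.1 in wild-type pools, with 72.9 in the control. The groups were apart by 0.46 (interval 0.15 to 0.77). Smyd5, another SET-domain enzyme, gave 0.31 with overlapping groups.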

How the data were processed

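The deposited table holds 1 linear intensity per probe set and array, as the authors made it; no label names the software. In every array the mean after trimming 2% at each end was 150.05, and the medians were 31.0 to 33.9, so no further normalization was added. Array number limits the precision. Of 31099 probe sets, 57 controls were left out. Symbols came from the platform annotation (20826 probe sets with 1 symbol, 436 with several, 9780 with none), and 68 of the 69 member genes were found in a gene table, with 0 renamed. No probe sequence was matched to a genome. Intensities were taken to log2 after adding 8.25, the 25th percentile, and fold differences of dim probe sets are understated on that scale. Probe sets with a mean above the 40th percentile (an intensity of about 17.3) were tested. limma 3.58.1 in R 4.3.3 (lmFit, eBayes with trend) compared mutant and wild-type hSOD1 on 8 arrays, and both with the control on all 9. Adjusted p is Benjamini-Hochberg over 18625 probe sets, threshold 0.05. Intervals are 95% limma intervals. The scripts were checked on simulated data.

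Members, classes and lists were chosen with earlier results of these data known. Setd1b was always named. Others were named for an unadjusted p under 0.05 or for groups without overlap. In each class the 2 genes of smallest p and the brightest gene were also named. Against the control the rule was an unadjusted p under 0.05. Members with all 8 pools on 1 side of the control were outside that rule and were chosen after their values were seen. From each partner list up to 2 of smallest p were named. Values given for further members were chosen after they were seen. Levels were not set against each other between probe sets. Alternatives were quantile normalization, median centring, other pseudocounts and filters, no trend, 1 probe set per gene, covariates, a replicate block and leaving out each pool.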

Additional observations from a re-analysis of the deposited data

Results flagged for a closer look

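In 3 of 66 groups of 4 pools among the named probe sets, 1 pool stood far from the others by Dixon's test, which chance does in about 1 of 20 groups. For Prmt6, wild-type replicate 2 read 105, and the others read 173 to 181. For Hdac7, wild-type replicate 2 read 106 against 75.0 to 79.6 in the others. That pool also had the actin 3′/5′ ratio of 19.2, the highest of the 9 arrays, and its part in these values was not tested. For Suz12, mutant replicate 3 read 108 against 133 to 138.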

How the results depend on the processing

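Between mutant and wild-type hSOD1, 21 of 33 named probe sets kept 1 direction under each of the 18 to 20 alternatives in which they were tested, and 12 did not. Of the 12, Prmt6 had a difference of 0.23, and the others lay between -0.11 and 0.09. The 3 probe sets past the threshold among all became 5 with median centring, 1 with no filter, 1 with a filter at the 60th percentile or the le2 tag as a covariate, 0 with no intensity trend or the actin ratio as a covariate, and 1 to 3 with a pool left out (1 without mutant replicate 1, or wild-type replicate 1 or 3). Members past it stayed at 0, except 1, Setd1b, without mutant replicate 3, and the range with a pool left out was 0 to 1. The Setd1b difference then ranged from -0.95 to -0.67. Same-numbered pools had correlations of -0.07 to 0.20, and other pairs had -0.23 to 0.21. Of 4 mutant pools, 2 correlated best with the wild-type pool of their own number. Whether the numbers pair the pools cannot be told from these values. With the replicate number as a block, 3 probe sets passed, members past the threshold were 0, and members at an unadjusted p under 0.05 were 8 in place of 4. Against the control, 0 probe sets became 1 for both transgenes and for wild-type hSOD1 with median centring or a pseudocount of 2.06, and 1 for mutant hSOD1 with that pseudocount. With a pool left out it was 0 to 1 (1 without wild-type replicate 1). Members at an unadjusted p under 0.05 ranged from 0 (filter at the 60th percentile) to 5 (actin covariate) for both transgenes in place of 1, from 0 (that filter, or 1 probe set per gene) to 4 (no filter) for mutant hSOD1 in place of 1, and from 3 to 6 for wild-type hSOD1 in place of 4. The cause of these changes was not tested.

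Median centring turned Prmt2 to -0.0139, Setdb1 to -0.00233 and the second brightest Kdm5c probe set to -0.00717, and quantile normalization turned the latter to -0.0126. The actin covariate gave -0.0773 for Prmt6, -0.0406 for Dnmt1, -0.0400 for Setdb1, 0.00153 for Setd3, -0.0341 for Ezh1, -0.0314 for Ezh2 and 0.00191 for Suz12. With a pool left out, ranges crossed 0 for Prmt2 (-0.0230 to 0.0361), Dnmt1 (-0.0186 to 0.211), Dnmt3a (-0.0602 to 0.0679), Setdb1 (-0.00783 to 0.0655), Setdb2 (-0.0282 to 0.199), Kdm5c (-0.000719 to 0.0621 on the brightest and -0.135 to 0.155 on the second brightest probe set), Ezh2 (-0.0156 to 0.120) and Suz12 (-0.326 to 0.0443).

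Each transgene is 1 line, the control is 1 pool, the probe sets below the filter give no test, and dim probe sets near it have a difference compressed by the pseudocount. What the tag le2, carried by replicates 2 to 4 of both groups, means is not given.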

Other observations

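The genes beside Setd1b on its chromosome were read after the Setd1b values were seen. Among the 10 genes on each side of it in the order of the rat assembly GRCr8, 12 had tested probe sets, 20 in all. Their log2 differences between mutant and wild-type pools ran from -0.41 to 0.27. The lowest was on 1 probe set of Bcl7a, a chromatin remodelling subunit, whose other probe set gave 0.03. The highest was on 1 probe set of Vps33a, a vesicle sorting protein, whose others gave -0.02 to 0.26. Of the 20 neighbouring probe sets, 0 had groups without overlap, 0 reached an unadjusted limma p under 0.05 and 0 passed the threshold. The shares of all tested probe sets were 2.95%, 4.93% and 0.0161%, so counts of 0 among 20 say nothing particular of these genes. Kdm2b, itself one of the enzymes, lies 5 genes from Setd1b and gave -0.03.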
